A study of Homo sapiens with 3 samples.

Results

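Nuclear-encoded genes of the respiratory chain were followed in counts of polyadenylated RNA 3′ ends from HEK293T cells, a widely used line that came from human embryonic kidney. The 7 genes were ATP5F1B, ATP5F1A, COX4I1, COX6C, COX7C, NDUFA4 and UQCRH, and each was taken as all counts on its own strand inside a window given in hg19 coordinates. All 7 had counts in every library, among 10843 nuclear 3′ end sites with a mean of at least 10 CPM over the 3 libraries, where CPM is the usual scaling of counts to a common library total, here the nuclear counts. The libraries were RNA captured after 60 min in 4-thiouridine (4sU), RNA captured after 30 min in 4sU, and the input of the 30 min labelling, whose treatment is labelled as none and which stands for steady-state RNA. The labels name no genetic change beyond the line itself, and they write the 4sU concentration as 1000 mM. 4sU is a nucleoside analogue that enters RNA while it is made, so captured RNA is enriched for new molecules. Each group was 1 library (n = 1), so no difference has a replicate check, no p-value is given, and intervals cover counting error only.

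The respiratory chain passes electrons from NADH and succinate to oxygen through complexes I to IV of the inner mitochondrial membrane, and ATP synthase, complex V, uses the resulting proton gradient to make ATP. Most subunits are encoded in the nucleus, made in the cytosol and imported, while a small set is encoded in mitochondrial DNA and made inside the organelle. Complexes I, III, IV and V therefore join products of both genomes, and complex II is nuclear-encoded throughout.

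Total depth was 8926568 counts with 6151986 nuclear ones in the 4sU 60 min library, 14159691 with 9652023 nuclear ones at 30 min, and 35410931 with 32768468 nuclear ones for the input. Because only the 3′ end of a polyadenylated molecule is read, whatever its length, levels were compared between genes without a length correction. This concerns the reading step only. Whether recovery of captured RNA varied with transcript length was not tested, and comparisons between genes in captured RNA carry this limit. CPM is a share of nuclear reads, so a change in the number of cells and in RNA per cell cannot be told apart in it. Among genes taken as marks of the line, VIM (557.8 to 674 CPM), KRT18, ZIC2, NEFM and PAX2 (1.34 to 13.8 CPM) had counts in every library. HBG1 and HBG2 of erythroid cells had none, PTPRC of leukocytes had at most 3 counts, ALB of hepatocytes at most 6, and COL1A1 of fibroblasts reached 1.63 CPM. The marker windows were written from knowledge of hg19 and not checked against an annotation, so a count at or near 0 could also come from a misplaced window. The numbering of the files was examined with 52 other nuclear genes of the pathway, whose hg19 gene ends were written from knowledge of that annotation: for 30 of them the highest 3′ end lay within 25 nt of the recorded gene end at a mean of at least 10 CPM.

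Promoter sequence is shown for the 4 members found in the RefSeq promoter table (GRCh38.p14). A link between these sequences and the ratios described below was not tested. Each stretch is the 150 bases before the gene start, 5′ to 3′ on the gene's strand; for ATP5F1A the outer of its 2 listed starts was taken. Capitals mark the letters of a searched motif on either strand.
COX7C, chr5:86617791-86617940, plus strand: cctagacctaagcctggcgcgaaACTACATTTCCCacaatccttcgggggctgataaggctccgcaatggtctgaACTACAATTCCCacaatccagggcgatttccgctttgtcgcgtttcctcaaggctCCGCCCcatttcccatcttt
UQCRH, chr1:46303548-46303697, plus strand: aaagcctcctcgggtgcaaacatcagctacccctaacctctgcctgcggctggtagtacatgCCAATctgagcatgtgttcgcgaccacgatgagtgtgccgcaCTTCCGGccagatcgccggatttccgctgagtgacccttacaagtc
COX4I1, chr16:85799545-85799694, plus strand: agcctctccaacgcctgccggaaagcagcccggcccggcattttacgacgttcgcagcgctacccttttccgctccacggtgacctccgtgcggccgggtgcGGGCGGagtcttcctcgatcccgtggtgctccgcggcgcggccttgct
ATP5F1A, chr18:46104228-46104377, minus strand: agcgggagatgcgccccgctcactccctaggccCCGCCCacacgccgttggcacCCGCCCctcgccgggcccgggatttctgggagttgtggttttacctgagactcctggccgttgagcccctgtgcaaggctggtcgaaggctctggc
The Sp1 box GGGCGG was found in COX7C, COX4I1 and ATP5F1A, and in 36.8% of 35116 promoters of the same length. The ETS core CCGGAAG was found in UQCRH and in 6.85% of all promoters, and the CCAAT box in UQCRH and in 23.5%. The NRF1 core and the YY1 core AAGATGGC were in none of the 4 stretches, against 4.29% and 0.814% of all promoters. COX7C held 2 copies of the element bound by ZNF143, the first 2 stretches in capitals there, and 0.615% of all promoters held it; this motif was chosen after the sequence was read. A match describes letters only, and no match says only that the letters were not in this window.

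All 7 genes fell at least 2-fold in captured RNA at both labelling times. Together they took 0.452% of nuclear counts in 4sU 60 min (95% Wilson interval 0.447 to 0.458). The share was 0.324% at 30 min (0.320 to 0.327), against 1.12% in the input. Their summed level was thus 2.48-fold lower than input at 60 min (2.45 to 2.52) and 3.47-fold lower at 30 min (3.43 to 3.52). A gene or site was called when its ratio was at least 2-fold and its exact 95% counting interval excluded 1. By that rule 7 of 7 genes were lower at 60 min, where 21.8% of all sites were lower, and 7 of 7 were lower at 30 min, where 17.1% of all sites were. Among the 1522 sites with a mean of at least 100 CPM, nearer the levels of these genes, 24.7% were lower at 60 min and 27.5% at 30 min. The 7 genes had 729 to 2814 CPM in input, so this set was not matched to their level. The 60 min and 30 min ratios share the input library, so they are not separate checks of each other. ATP5F1B and COX4I1 lay close to the threshold: counting positions with at least 2 counts alone, ATP5F1B was 1.94-fold lower at 60 min and 1.96-fold lower at 30 min, COX4I1 was 1.97-fold lower at 60 min, and none of these was called.

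**Figure D1:**
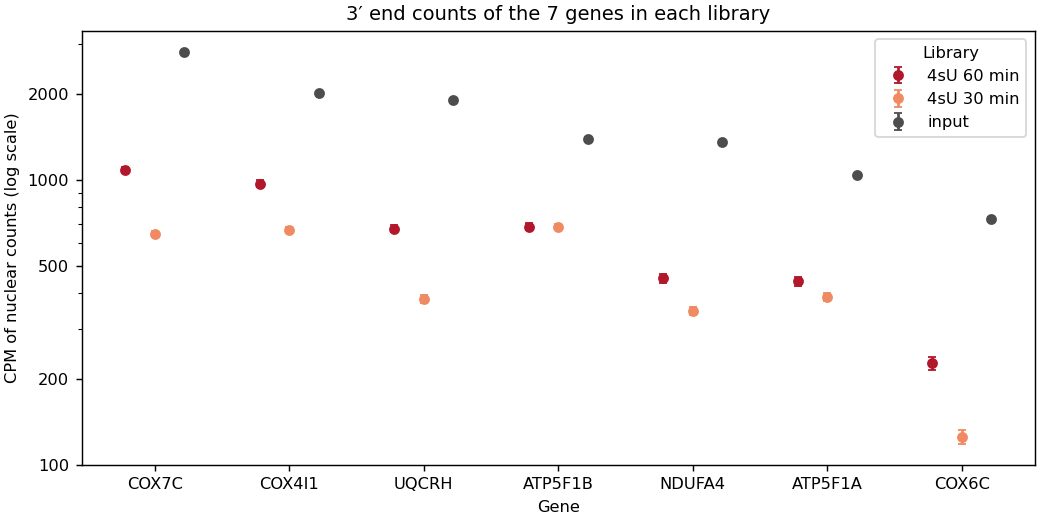
Level of each gene in CPM of nuclear counts (log axis) in 4sU 60 min, 4sU 30 min and input, 1 library each; bars are exact 95% Poisson intervals, often smaller than the points. Every gene is highest in input, and the 4sU 60 min point lies above the 4sU 30 min point in 6 of 7 genes, with ATP5F1B at 684 and 685 CPM.

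ATP5F1B and ATP5F1A encode the beta and alpha subunits of the catalytic head of ATP synthase, with the catalytic sites on beta. ATP5F1B had 684 CPM in 4sU 60 min, 685 CPM in 4sU 30 min and 1395 CPM in input. It was 2.04-fold lower than input at 60 min (1.97 to 2.10) and 2.04-fold lower at 30 min (1.98 to 2.09), the smallest fall among the 7 genes at both times. At 60 min this rank was not settled, as the interval overlapped that of COX4I1 (2.02 to 2.13). ATP5F1A had 440 CPM in 4sU 60 min, 388 CPM in 4sU 30 min and 1038 CPM in input, and was 2.36-fold lower than input at 60 min (2.27 to 2.46) and 2.68-fold lower at 30 min (2.59 to 2.77). These head subunits had the lowest ratios of 60 to 30 min among the members, 0.999 (0.960 to 1.04) for ATP5F1B and 1.13 (1.08 to 1.19) for ATP5F1A.

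Cytochrome c oxidase, complex IV, passes electrons from cytochrome c to oxygen, and its nuclear-encoded subunits surround a mitochondrially encoded core. COX4I1, the common isoform of the largest nuclear-encoded subunit, had 969 CPM in 4sU 60 min, 665 CPM in 4sU 30 min and 2009 CPM in input. It was 2.07-fold lower than input at 60 min (2.02 to 2.13) and 3.02-fold lower at 30 min (2.94 to 3.10). COX7C, a small membrane-spanning subunit, had 1080 CPM in 4sU 60 min and 643 CPM in 4sU 30 min, against 2814 CPM in input, the highest level of the 7 genes there. Its fall was 2.60-fold at 60 min (2.54 to 2.67) and 4.37-fold at 30 min (4.26 to 4.49).

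COX6C, another small subunit of complex IV, was the lowest of the 7 genes in every library. It had 227 CPM in 4sU 60 min, 125 CPM in 4sU 30 min and 729 CPM in input, falls of 3.22-fold at 60 min (3.05 to 3.40) and 5.82-fold at 30 min (5.50 to 6.17). NDUFA4, first described with complex I and now placed in complex IV, had 451 CPM in 4sU 60 min, 347 CPM in 4sU 30 min and 1354 CPM in input. It was 3.004-fold lower than input at 60 min (2.89 to 3.12) and 3.90-fold lower at 30 min (3.77 to 4.04).

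UQCRH, the hinge protein of complex III that sits beside cytochrome c1, had 674 CPM in 4sU 60 min, 381 CPM in 4sU 30 min and 1903 CPM in input. It was 2.82-fold lower than input at 60 min (2.74 to 2.92) and 4.99-fold lower at 30 min (4.82 to 5.16). At 30 min the falls thus spread from 2.04-fold for ATP5F1B to 5.82-fold for COX6C, a range of 1.52 on the log2 scale. At 60 min the range was 0.658, and the intervals of ATP5F1B and COX4I1 overlapped, as did those of NDUFA4 with UQCRH and with COX6C.

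The order of levels differed between captured RNA and input. In 4sU 60 min the order from the highest was COX7C, COX4I1, ATP5F1B, UQCRH, NDUFA4, ATP5F1A and COX6C, with overlapping counting intervals between ATP5F1B and UQCRH and between NDUFA4 and ATP5F1A. In 4sU 30 min it was ATP5F1B, COX4I1, COX7C, ATP5F1A, UQCRH, NDUFA4 and COX6C; the intervals of ATP5F1B and COX4I1 overlapped, as did those of COX4I1 and COX7C and of ATP5F1A and UQCRH. In input it was COX7C, COX4I1, UQCRH, ATP5F1B, NDUFA4, ATP5F1A and COX6C, with no overlap between neighbours. ATP5F1B was therefore the most abundant of the 7 genes in 4sU 30 min and the fourth in input. Spread between libraries of a group was not available, so this order rests on counting intervals alone.

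Between the labelling times, 0 of 7 genes reached the 2-fold threshold in either direction, where 4.58% of all sites were higher at 60 min and 14.0% were lower. The ratios of 60 to 30 min were 1.81 for COX6C (1.68 to 1.96), 1.77 for UQCRH (1.69 to 1.85), 1.68 for COX7C (1.62 to 1.74), 1.46 for COX4I1 (1.41 to 1.51) and 1.30 for NDUFA4 (1.24 to 1.37). COX6C, UQCRH and COX7C, the lowest at 30 min relative to input, thus had the highest ratios. NDUFA4 broke the order: it was lower than COX4I1 at 30 min relative to input and also had the lower ratio. Both quantities contain the 30 min library, so this arrangement is a description only. The median over the 7 genes was 0.54 on the log2 scale, beside -0.27 for all sites and -0.033 for sites of at least 100 CPM. At a 1.5-fold threshold COX6C, UQCRH and COX7C were higher at 60 min, where 10.6% of all sites and 15.0% of sites of at least 100 CPM were. With median-of-ratios and TMM scaling the same 3 genes passed 2-fold, with COX6C at 2.23 and 2.16, UQCRH at 2.17 and 2.11, and COX7C at 2.07 and 2.00. The interval of COX7C reached below 2 under both scalings. More sites were called higher under them too: 897 of 10843 with median-of-ratios and 822 with TMM, against 497 with CPM of nuclear counts.

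The main 3′ ends of the 7 genes were then placed among all sites of at least 100 CPM. Positions on a strand within 24 nt of a local maximum formed a site, and the main end of a gene was its highest site. At 30 min against input, 3 of 1522 sites lay below the main end of COX6C, 33 below that of UQCRH, 54 below COX7C and 95 below NDUFA4. COX4I1, ATP5F1A and ATP5F1B stood higher in the distribution, with 14.3%, 16.95% and 25.8% of the sites below them. At 60 min against input the members spanned from 7.16% of sites below COX6C to 23.8% below COX4I1. The median log2 ratio of the 7 gene sums was -1.38 at 60 min and -1.96 at 30 min, against -0.15 and -0.20 for sites of at least 100 CPM and 0.063 and 0.37 for all sites. Of the calls among all sites, 55.7% were higher ones at 60 min and 67.3% at 30 min; with counts of mitochondrial DNA in the total these shares were 38.2% and 50.2%, and at 30 min the share was 53.1% with median-of-ratios scaling and 53.5% with TMM. All 7 genes stayed below input under each of these scalings.

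**Figure D2:**
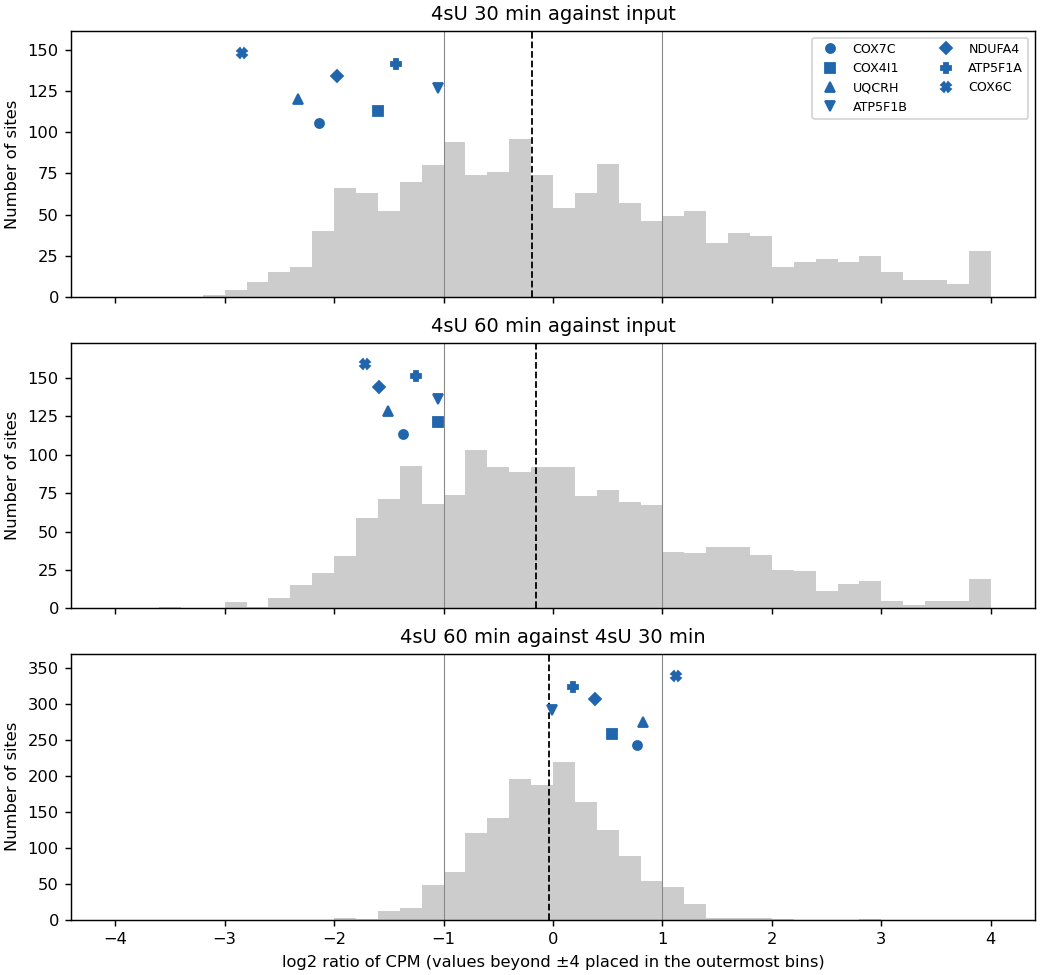
Log2 ratios of the main 3′ ends of the 7 genes (symbols, at arbitrary heights) over a histogram of the 1522 nuclear sites with a mean of at least 100 CPM (grey). The dashed line is the median of those sites and the thin lines mark 2-fold; all 7 symbols lie below -1 against input at both times, and only COX6C lies above 1 at 60 against 30 min.

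Each gene had 1 dominant 3′ end, held by hg19 position 57031963 on chromosome 12 for ATP5F1B, 43664114 on chromosome 18 for ATP5F1A, 10973084 on chromosome 7 for NDUFA4 and 100890378 on chromosome 8 for COX6C, all on the minus strand. On the plus strand lay 85840605 on chromosome 16 for COX4I1, 85916581 on chromosome 5 for COX7C and 46782445 on chromosome 1 for UQCRH. In input the main end held from 98.9% of the counts of COX7C to 99.96% of those of UQCRH. In 6 of the 7 genes it also held at least 97.4% in both captured libraries. No annotation or sequence of hg19 was used here, so the exon or intron at a position is not given.

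COX6C departed from this pattern at 30 min. A second end at position 100897951, at -7573 nt from the main one (negative upstream), held 30 of the gene's 1394 counts at 60 min, or 2.15% (1.51 to 3.06). At 30 min it held 220 of 1208 counts, or 18.2% (16.1 to 20.5), and in the input 135 of 23881, or 0.565% (0.478 to 0.669). The difference from input was 17.6 percentage points at 30 min (15.6 to 19.9) and 1.59 points at 60 min (0.938 to 2.49), with Newcombe 95% intervals. In CPM, the upstream end was 1.18-fold the input at 60 min (0.769 to 1.77), which was not called, and rose 5.53-fold at 30 min (4.45 to 6.91). At 60 min it was 4.67-fold lower than at 30 min (3.18 to 7.09). Among all sites, 35.3% were called higher than input at 30 min, and 14.0% were called lower at 60 than at 30 min. The log2 ratio of the upstream end to input at 30 min, 2.47, lay below the 90th percentile of sites with counts in both libraries, 2.74. Counts of the upstream end were spread over 4 positions at 60 min and 15 at 30 min, against 11 for the input, with 70.0%, 63.6% and 56.3% at the highest one. Without this end COX6C was 3.27-fold lower than input at 60 min and 7.08-fold lower at 30 min, and its ratio of 60 to 30 min was 2.17 (1.99 to 2.35), past the 2-fold threshold. No genome sequence was read around this position, so whether its counts mark a cleaved 3′ end or priming at a run of A inside the transcript was not tested.

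Smaller ends lay near those of ATP5F1B and COX7C. An end 100 nt upstream of the main one of ATP5F1B held 2.30% of the gene's counts at 60 min and 2.12% at 30 min, against 0.665% in input. At least 97.7% of these counts lay at 1 position in each library. An end 197 nt downstream of the main one of COX7C held 0.301% at 60 min and 1.22% at 30 min, against 0.783% in input. It fell 6.78-fold against input at 60 min (4.36 to 11.2) and 2.80-fold at 30 min (2.21 to 3.59). Counts outside the main end of ATP5F1A were 1.18% of the gene at 60 min and 1.07% at 30 min, against 0.168% in input. The windows held few counts on the opposite strand, at most 96 in any library, with the highest numbers in the window of COX6C.

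Within the main ends, the highest position was the same in every library, apart from ATP5F1A at 60 min, where the position 2 nt upstream equalled it, and lesser positions differed in weight. Counting from the highest position, positive downstream, the mean position of captured RNA was upstream relative to the input for 6 of 7 genes at 60 min and for 6 of 7 at 30 min; ATP5F1B was the exception at both times. Among sites of at least 100 CPM the share upstream was 73.9% at 60 min and 73.8% at 30 min. NDUFA4 had the largest such shift at 30 min, of -0.659 nt, with means of -1.65 nt in 4sU 60 min, -2.02 nt in 4sU 30 min and -1.36 nt in input. A minor group of positions 5 to 9 nt upstream of its highest position held 17.4% of the end's counts at 60 min (16.01 to 18.8) and 21.03% at 30 min (19.7 to 22.4), against 14.5% for the input (14.2 to 14.9). In COX6C the position 4 nt upstream held 18.8% at 60 min (16.8 to 20.9) and 18.5% at 30 min (16.2 to 21.1), against 12.5% for the input (12.1 to 12.9). In ATP5F1B the position 2 nt downstream held 12.3% at 60 min and 14.2% at 30 min, against 7.70% in input, with intervals that did not overlap that of input. These positions were chosen after their values were seen.

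**Figure D3:**
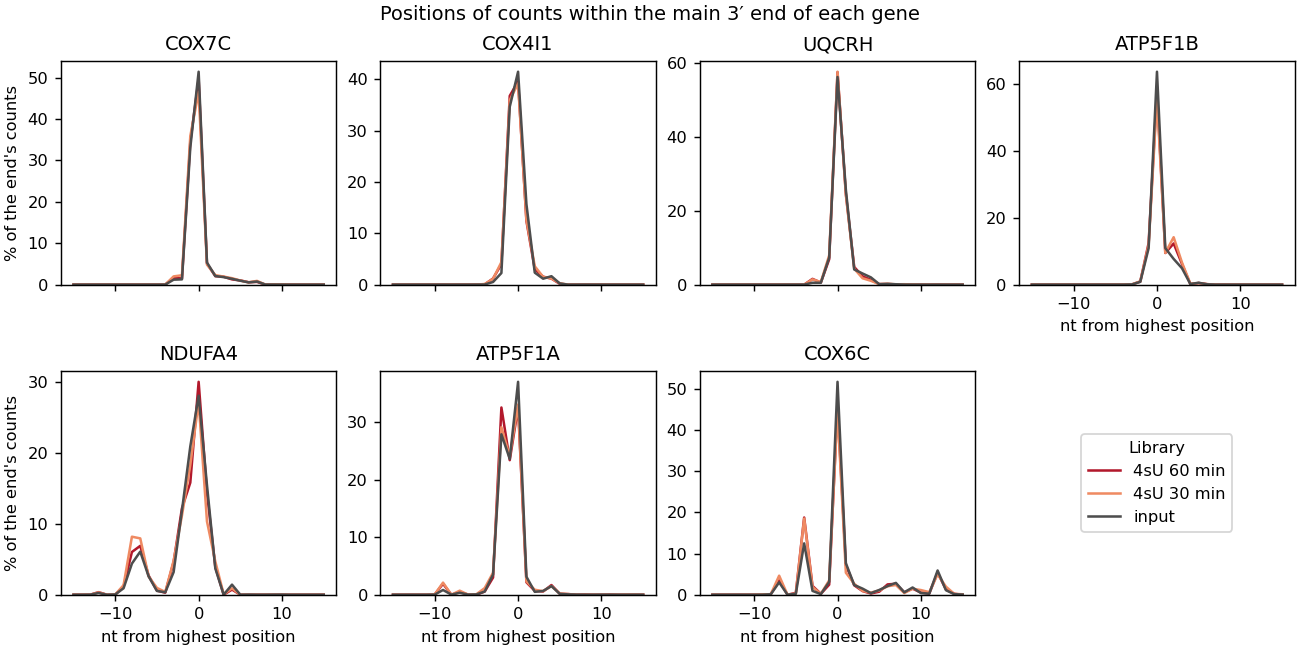
Share of the counts of each main 3′ end at each position (vertical axis, percent) against the distance in nt from its highest position, positive downstream, in 4sU 60 min, 4sU 30 min and input. Each gene has 1 leading position across the libraries, tied in ATP5F1A at 60 min, while the minor positions of NDUFA4 (5 to 9 nt upstream), COX6C (4 nt upstream) and ATP5F1B (2 nt downstream) are higher in captured RNA.

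The SD of positions within the main end was larger than in input in 6 of 7 genes at 60 min and in 7 of 7 at 30 min. It was larger in 63.6% and 76.0% of sites of at least 100 CPM at those times, with median differences of 0.062 and 0.135 nt there and of 0.190 and 0.215 nt over the members. COX6C had the broadest end, with an SD of 4.55 nt in 4sU 60 min, 4.77 nt in 4sU 30 min and 4.36 nt in input. UQCRH had an SD of 1.07 nt in 4sU 60 min, 1.18 nt in 4sU 30 min and 1.09 nt in input, the narrowest of the 7 genes in each.

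Other nuclear genes of the same pathway were examined where their end could be placed. Of the 52 listed genes, 32 had their highest 3′ end within 100 nt of the recorded gene end and a mean of at least 10 CPM; the other 20 were not used. At 60 min 18 of the 32 were lower than input and 0 were higher, against 21.8% and 27.3% of all sites. At 30 min 22 of the 32 were lower and 0 were higher, against 17.1% and 35.3%. The median log2 ratio of the 32 genes was -1.22 at 60 min and -1.56 at 30 min. These are gene sums of chosen abundant genes set beside single sites, so the shares describe the list and give no test of it.

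Counts by complex stand beside 21.8% of all sites lower at 60 min and 17.1% at 30 min, and several rest on 2 or 4 genes. By complex, 7 of 14 genes of complex I were lower at 60 min and 10 of 14 at 30 min. In complex III, 1 of 4 placed genes was lower at each time, the core protein gene UQCRC2, at 2.32-fold (2.17 to 2.47) and 4.23-fold (3.95 to 4.54). UQCRB, UQCR10, UQCR11 and UQCRQ of this complex were not used, so the count does not describe the complex as a whole. Their levels were also below input in both captured libraries. They had 146, 259, 586 and 1511 CPM in 4sU 60 min and 142, 267, 310 and 1032 CPM in 4sU 30 min. In input they had 656, 650, 967 and 2234 CPM. In complex IV, 3 of 4 were lower at each time. In complex V, 5 of 8 were lower at 60 min and 7 of 8 at 30 min. In complex II, 2 of 2 were lower at 60 min and 1 of 2 at 30 min. SDHD, a membrane anchor of succinate dehydrogenase, had the lowest ratio of the list at 60 min, 4.83-fold below input (3.80 to 6.22), and at 30 min was 1.86-fold below (1.64 to 2.12), with levels of 11.4 CPM in 4sU 60 min, 29.5 CPM in 4sU 30 min and 54.96 CPM in input.

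**Figure D4:**
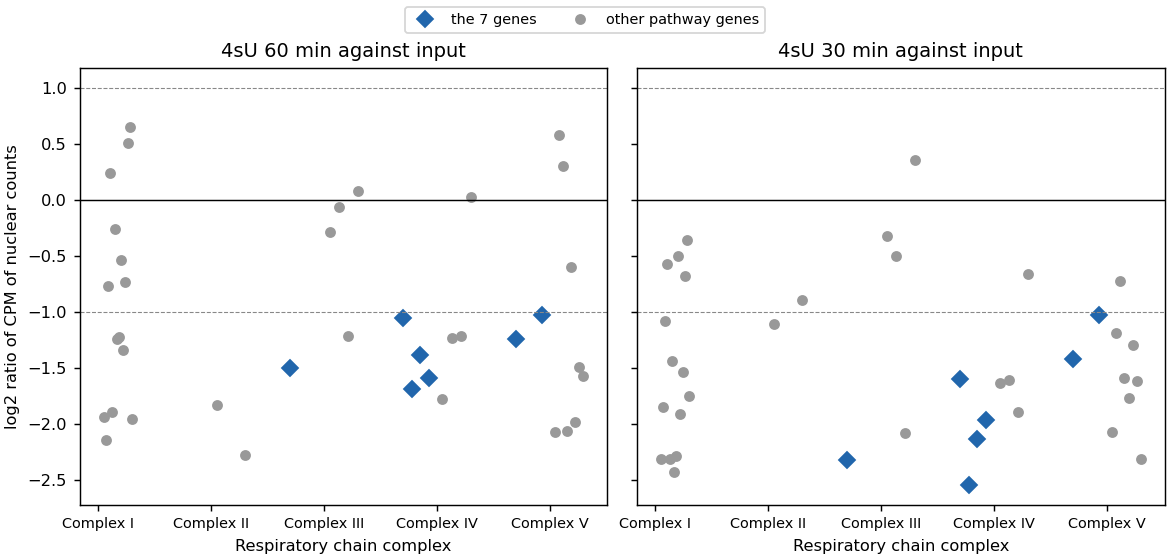
Log2 ratios to input of the 7 genes (blue diamonds) and of 32 other nuclear genes of the pathway (grey circles) by complex, at 60 min (left) and 30 min (right); each point is 1 gene and dashed lines mark 2-fold. The 7 genes lie between -1.03 and -1.69 at 60 min and between -1.03 and -2.54 at 30 min, and no grey circle passes 1.

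At 30 min the lowest gene of the list was NDUFB8 of complex I, 5.38-fold below input (5.03 to 5.75), and the highest was UQCRFS1, the Rieske iron-sulfur protein of complex III, at 1.28-fold the input (1.20 to 1.37), which was not called. At 60 min the highest was NDUFV1, the flavoprotein of complex I that binds NADH, at 1.57-fold the input (1.502 to 1.64), also not called. Between the labelling times 8 of the 32 genes were higher at 60 min and 1 was lower, against 4.58% and 14.0% of all sites. The largest rise was in ATP5F1D, the delta subunit of the ATP synthase stalk, at 3.40-fold (3.13 to 3.69), with 300.7 CPM in 4sU 60 min, 88.5 CPM in 4sU 30 min and 202 CPM in input. The one that fell was SDHD, 2.60-fold (1.99 to 3.42). In the plane of both log2 ratios to input, the 3 genes nearest the median of the 7 members were NDUFS5 at a distance of 0.069, COX6B1 at 0.183 and UQCRC2 at 0.205, over 3 libraries.

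Ends of mitochondrially encoded mRNAs went the opposite way. They were compared as shares of all counts, mitochondrial DNA (chrM) included, since CPM of nuclear counts leaves them out. All chrM counts together were 31.1% of the total at 60 min and 31.8% at 30 min, against 7.46% in input. A larger chrM share by itself lowers the share of every nuclear gene on this scale. On this scale the 7 nuclear genes held 0.312% at 60 min and 0.221% at 30 min, against 1.04% in input. Windows on the plus strand, placed where chrM mRNAs are known to end and written from knowledge without an annotation to check them, held 14.4% of all counts at 60 min and 15.8% at 30 min (15.7 to 15.8), against 2.30% for the input (2.30 to 2.31). The 7 genes together were thus 3.34-fold lower than input at 60 min (3.30 to 3.38) and 4.72-fold lower at 30 min (4.66 to 4.77). On nuclear counts alone these falls were 2.48-fold and 3.47-fold. The chrM mRNA ends were 6.25-fold the input at 60 min and 6.84-fold at 30 min. For each count of the 7 genes the chrM windows had 46.2 counts at 60 min and 71.4 at 30 min, against 2.21 in input.

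The mRNA ends of ND2, a complex I subunit, showed the highest ratio, with 3.95% of all counts at 60 min and 3.60% at 30 min, against 0.215% for the input. That was 18.3-fold the input at 60 min (18.2 to 18.5) and 16.7-fold at 30 min. CYB, the cytochrome b of complex III in which UQCRH is a partner subunit, was 7.18-fold the input at 60 min and 7.56-fold at 30 min. The shared end of ATP8 and ATP6, subunits of the ATP synthase, was 4.94-fold at 60 min and 5.20-fold at 30 min, whereas their nuclear-encoded partner ATP5F1B was 2.74-fold lower at 60 min and 2.76-fold lower at 30 min on this scale. The falls of the other members reached 4.32-fold at 60 min and 7.91-fold at 30 min, both in COX6C. COX3 of complex IV had 1.47% of all counts at 60 min and 3.31% at 30 min, against 0.760% in input. It was 1.93-fold the input at 60 min (1.92 to 1.94), which was not called, and 4.35-fold at 30 min, and at 60 min it was 2.25-fold lower than at 30 min (2.24 to 2.27).

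The shared end of ND4L and ND4 rose 10.3-fold against input at 60 min and 7.46-fold at 30 min, and that of ND3 4.82- and 6.96-fold. COX1 had few counts in its window, 343 at 60 min and 586 at 30 min, against 597 in input, and ND5 had 1927 at 60 min and 1861 at 30 min, against 1286 in input. An end at position 14746 of the plus strand, where the longer ND5 mRNA is known to end, had 70188 counts at 60 min and 93657 at 30 min, against 87082 in input, and was 3.20-fold the input at 60 min and 2.69-fold at 30 min. The windows of ND1 and COX2 held no position with counts, which a misplaced window would also give, and these mRNAs were not analysed here. Per the labels' protocols the captured RNA skipped the first poly(A) selection; the sources used here do not say whether the input did, and the part of that step in the chrM shares and in the falls of the 7 genes was not tested.

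**Figure D5:**
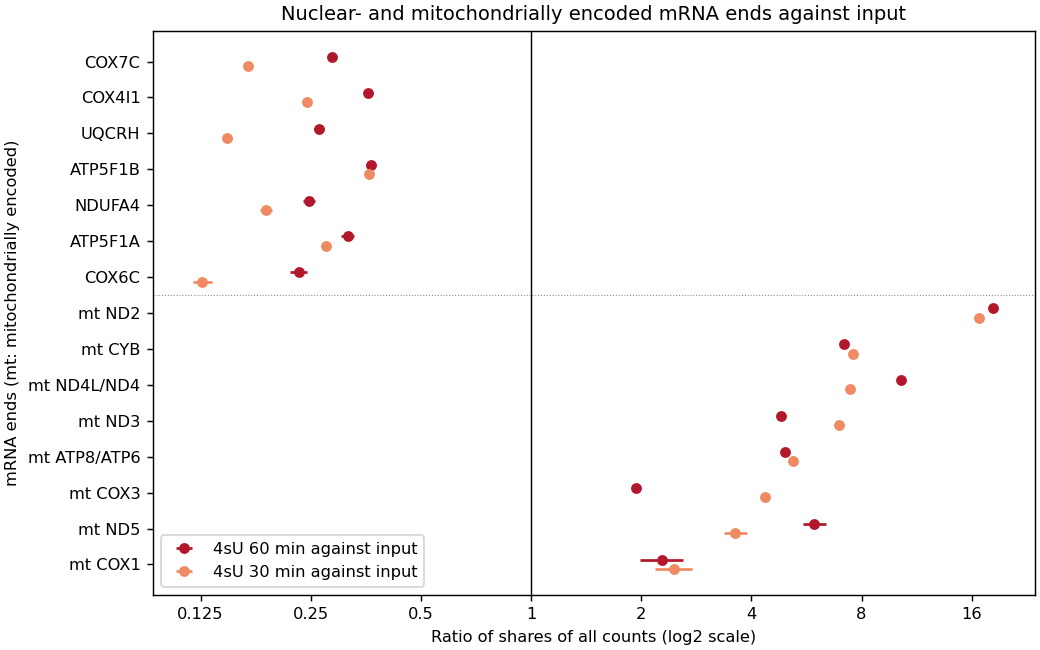
Ratio to input of the share of all counts (horizontal, log2-scaled axis) for the 7 nuclear genes (above the dotted line) and for 8 ends of mitochondrially encoded mRNAs (mt, below it), at 60 min and 30 min; bars are exact 95% intervals. Every nuclear gene lies left of 1, and every mt end lies right of it, from 1.93 for COX3 at 60 min to 18.3 for ND2 at 60 min. The windows of COX1 and ND5 held few counts, 597 and 1286 in input, and could be misplaced.

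Several members have near copies elsewhere in the genome, and the sources used here do not say how reads with more than 1 match were placed. The RefSeq gene table (GRCh38.p14) names 18 pseudogenes after COX6C, 7 after ATP5F1A, 4 each after COX7C and UQCRH, 2 after COX4I1 and 1 after ATP5F1B, and it lists UQCRHL, a gene similar to UQCRH. It names none after NDUFA4, but this search by symbol alone would miss copies under other names. Levels of the members are therefore less certain where reads of such copies were counted with them.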

How the data were processed

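Per the labels' protocols, 2P-seq fragments RNA with RNase T1 between rounds of poly(A) selection and then primes cDNA at the tail; captured 4sU RNA skipped the first selection. Cutadapt and Bowtie are listed, per the submitters' processing notes, and their versions, their roles and the build are not stated there. Each deposited value is a raw count at 1 position of 1 strand, with no normalization. Molecular identifiers are not named, so reads may not be independent molecules, and the counting intervals may then be too narrow.

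The 3 libraries were compared as 4sU 60 min and 4sU 30 min against input, and 60 against 30 min. Positions are 1-based. Counts were summed per gene window, and positions within 24 nt of a local maximum were merged into sites. Scaling was to nuclear CPM. Ratios carry exact 95% Clopper-Pearson-based intervals, and shares carry Wilson intervals. Counts of 0 allow up to 3 counts (0.488 CPM in 4sU 60 min, 0.311 in 4sU 30 min, 0.0916 in input). The calling was tested on simulated Poisson counts without variation between libraries, so that test does not cover variation between replicates. Alternatives were total scaling, median-of-ratios (DESeq2 1.42.0), TMM (edgeR 4.0.16), main end only, a position minimum, a 1.5-fold threshold, and other site filters. Python 3.11.15 and SciPy 1.17.1 were used. The members, lists and windows were chosen with earlier results of these data known. All 7 members were named; of the pathway list, the highest and lowest ratio of each comparison and the 3 genes nearest the members' median.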

Additional observations from a re-analysis of the deposited data

How the results depend on the processing

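No paired analysis was possible because each group is 1 library. The count of member genes called lower than input was 7 of 7 at both times under every alternative run, except 5 at 60 min and 6 at 30 min with positions of at least 2 counts. The median member log2 ratio to input was -1.81 (60 min) and -2.41 (30 min) with all counts in the total, -1.45 and -2.33 with median-of-ratios scaling, -1.48 and -2.32 with TMM, and -1.31 at 60 min with positions of at least 2 counts. From 30 to 60 min it was 0.84 with median-of-ratios scaling and 0.80 with TMM, and the number of members called was 3 with either, 3 at 1.5-fold and 1 (COX6C) with the main end alone, against 0. All 42 member log2 ratios to input over 6 scalings and counting rules were below 0 at 60 min, as were all 42 at 30 min. Of 42 log2 ratios of 60 to 30 min, 2 were below 0, both of ATP5F1B. Sites called, 5324 (60 min), 5682 (30 min) and 2019 (60 to 30 min), numbered 694, 807 and 157 at a mean of at least 100 CPM and 26118, 32265 and 12397 with at least 20 counts as the sole filter, which changes how many sites are tested. From 30 to 60 min higher sites numbered 497 of 10843 and were 24.6% of calls. They numbered 897 (54.96% of calls) with median-of-ratios scaling and 822 (50.3%) with TMM. Pathway genes called moved by less than 1.5 times. The chrM mRNA share was 18.9% (60 min), 19.4% (30 min) and 3.28% (input) with all plus strand counts outside the ribosomal RNA ends, and 15.2%, 16.4% and 2.55% with the longer ND5 end, an alternative chosen after seeing the data. With 1 library a group, depth limits single ends such as the upstream end of COX6C, which had 30 counts at 60 min.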
